A study of Mus musculus with 13 samples.

Results

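The 27 genes described here are a chosen set of GABA signalling genes, each measured on the array with a probe set of its own. They are the 18 genes whose platform symbol starts with Gabr or Gabbr, which encode subunits of the GABA-A and GABA-B receptors, and 9 chosen by name for the synthesis, packaging, uptake and breakdown of GABA, for the chloride gradient that GABA-A receptors use, and for the scaffold of inhibitory synapses. They are 27 of the 19938 genes tested, and where a gene had several probe sets of a single symbol, the one with the highest mean over all arrays stands for it. Values are log2 intensities, so that equal ratios are equal differences.

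Whole hippocampi of strain C57BL/6J were profiled from 13 mice, each on an Affymetrix Mouse Gene 1.0 ST array. The groups were 3 Kmt2d+/βGeo and 4 wild-type (Kmt2d+/+) mice without injections, called experiment 1, and 3 Kmt2d+/βGeo and 3 wild-type mice given 3 injections of saline vehicle a day, called experiment 2, whose mice served as controls of a separate study. All mice were 1 to 2 months old and ate standard chow, and the labels call them female apart from 1 wild-type mouse of experiment 1 (replicate 3) without a stated sex. Kmt2d encodes a methyltransferase that marks enhancers and promoters on histone H3, and Kabuki syndrome, in which people have intellectual disability, arises from loss of 1 copy of the gene. The βGeo allele is a gene trap carried in the germ line, so every cell of a Kmt2d+/βGeo mouse has it, and each sample is a mixture of all hippocampal cell types. In such bulk tissue, fewer cells of a type and less RNA per cell cannot be told apart. The series was deposited under a title about a ketogenic diet, and no mouse on that diet is among these 13.

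GABA, the main inhibitory transmitter of the forebrain, is made from glutamate by 2 glutamate decarboxylases, GAD67 (Gad1) and GAD65 (Gad2), and is loaded into synaptic vesicles by the transporter encoded by Slc32a1. It opens GABA-A receptors, chloride channels of 5 subunits of the alpha, beta, gamma, delta, epsilon, pi, theta and rho classes, and activates GABA-B receptors, which signal through G proteins. In the hippocampus, GABA is released mostly by interneurons, while the receptor subunits are made by interneurons, pyramidal cells, dentate granule cells and, in part, glia. The transporter GAT3 (Slc6a11) takes GABA up into astrocytes, and GABA transaminase (Abat) breaks it down.

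Several receptor genes lie side by side in the mouse genome (assembly GRCm38.p6). Gabrg1, Gabra2, Gabra4 and Gabrb1 follow one another on chromosome 5 between 70751047 and 72149572. Gabra5 and Gabrg3 are neighbours on chromosome 7, Gabra6 and Gabrb2 on chromosome 11, Gabrr1 and Gabrr2 on chromosome 4, and Gabre, Gabra3 and Gabrq on the X chromosome. The annotated spans of Gabra4 and Gabrb1, which are transcribed in opposite directions, overlap by 388 bases. The 250 bases before the annotated transcript start are shown for 3 genes that the comparison of the experiments turns on: Gabrg1, which fell most, its neighbour Gabra2, and Nlgn2, which rose. Sequences are from RefSeq on GRCm38.p6, written along the gene's own strand, and capitals mark the GC box letters GGGCGG, searched on both strands without overlap with another motif.
Gabrg1, minus strand, chr5:70842618-70842867: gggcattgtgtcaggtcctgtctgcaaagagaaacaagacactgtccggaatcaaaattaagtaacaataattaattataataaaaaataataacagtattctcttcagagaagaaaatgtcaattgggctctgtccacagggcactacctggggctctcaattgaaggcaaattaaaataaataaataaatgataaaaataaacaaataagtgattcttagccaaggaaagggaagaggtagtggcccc
Gabra2, minus strand, chr5:71095850-71096099: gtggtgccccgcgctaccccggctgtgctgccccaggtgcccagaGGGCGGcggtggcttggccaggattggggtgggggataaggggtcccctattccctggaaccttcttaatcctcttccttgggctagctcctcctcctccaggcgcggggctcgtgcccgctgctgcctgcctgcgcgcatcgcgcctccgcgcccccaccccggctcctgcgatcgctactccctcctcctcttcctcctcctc
Nlgn2, minus strand, chr11:69837785-69838034: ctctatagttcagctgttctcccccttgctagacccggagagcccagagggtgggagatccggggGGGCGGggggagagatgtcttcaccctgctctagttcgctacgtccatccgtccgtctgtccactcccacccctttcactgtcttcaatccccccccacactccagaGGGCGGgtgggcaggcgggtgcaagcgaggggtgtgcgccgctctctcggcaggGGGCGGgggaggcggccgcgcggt
The Gabrg1 window holds 1 CpG and no GC box and has 35.6% G and C. The Gabra2 window holds 18 CpG and 1 GC box, with 70.0% G and C, and the Nlgn2 window 18 CpG and 3 GC boxes, with 67.6% G and C. The median over 32851 such windows of 250 bases is 6 CpG. A GC box was present in 32.7% of all windows and in 14 of the 24 member genes with a window (58.3%). The letters TATAAA, searched on both strands, were in none of the 3 sequences, in 12.4% of all windows and in 3 of the 24 members (12.5%). For both motifs the share of all windows counts windows, while the share of members counts genes. The shares are therefore not like for like, and no enrichment or lack of it can be read from them. These matches describe the letters of the windows and nothing more.

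The targeted gene was measured by 2 probe sets, of which 10432294 was lower in every Kmt2d+/βGeo mouse of experiment 1 (7.17 to 7.47, against 7.87 to 7.90 in wild type) and of experiment 2 (7.88 to 8.18, against 8.32 to 8.76 in wild type). The other, 10432298, was at 9.84 to 9.95 against 9.82 to 9.83 in experiment 1 and at 9.49 to 9.80 against 9.46 to 9.82 in experiment 2. Markers of brain regions that border the hippocampus differed between arrays. All 10 measured markers of striatal projection neurons had their highest value in wild-type replicate 2 of experiment 1, with a mean of 10.82 there and 7.91 to 8.31 elsewhere. The mean of 7 septum markers was 7.49 to 7.53 in Kmt2d+/βGeo and 8.09 to 8.39 in wild-type mice of experiment 1, and 6.80 to 7.18 against 7.32 to 7.61 in experiment 2. Choroid plexus markers (12 genes) averaged 7.88 to 8.23 against 7.92 to 9.42 in experiment 1 and 7.39 to 8.47 against 6.70 to 8.22 in experiment 2. Within the hippocampus, 12 dentate granule cell markers averaged 9.75 to 9.78 in Kmt2d+/βGeo and 9.10 to 9.59 in wild-type mice of experiment 1, with all 12 at positive differences, and 8.97 to 9.11 against 8.89 to 9.21 in experiment 2. The 9 myelin markers averaged 10.18 to 10.53 against 10.61 to 10.82 in experiment 1, with all 9 at negative differences, and 10.06 to 10.34 against 9.58 to 10.39 in experiment 2. The part of these lists in the genotype results was not tested.

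The first question was whether the GABA genes differed between Kmt2d+/βGeo and wild-type hippocampus. With limma over all 19938 genes and both experiments, 0 of the 27 members passed an adjusted p of 0.05, as did 0% of all genes. At an unadjusted p under 0.05 there were 3 members, Gad2, Gad1 and Abat, all at negative differences, as had 2.61% of all genes. The median difference of the 27 members was -0.04 log2 units, against 0.00 over all genes, with a range from -0.25 to 0.20. Within experiment 1 no member passed either, where 0.0201% of all genes did, and within experiment 2 none did, where the share of all genes was 0%. At an unadjusted p under 0.05 there were 5 members below 0 in experiment 1 (2.16% of all genes). In experiment 2 there were 2 above 0 (4.9% of all genes) and 1 below 0 (5.34% of all genes). Differences had the same sign in both experiments for 14 members. They were below 0 in each experiment for 7 members, Gad1, Gad2, Abat, Gabbr1, Gabrd, Gabrq and Gabrr1 (21.8% of all genes), and above 0 for 7, Gabra2, Gabra4, Gabra5, Gabrb1, Gphn, Nlgn2 and Slc6a11 (26.4% of all genes).

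Both enzymes that make GABA had their lowest values of experiment 1 in the Kmt2d+/βGeo mice. Gad2, the decarboxylase bound to synaptic vesicles, was at 10.98, 10.93 and 10.88 log2 units in Kmt2d+/βGeo mice and at 11.37, 11.44, 11.29 and 11.07 in wild-type mice of experiment 1. In experiment 2 it was at 9.17, 9.35 and 9.22 in Kmt2d+/βGeo mice and at 9.30, 9.37 and 9.31 in wild-type mice. The groups of experiment 1 did not overlap, while in experiment 2 Kmt2d+/βGeo replicate 2 lay inside the wild-type range and the other 2 lay below it. The difference was -0.23 ± 0.07 (SE) over both experiments (limma adjusted p = 0.795, unadjusted p = 0.00643), -0.36 ± 0.09 in experiment 1 (adjusted p = 0.44, unadjusted p = 0.00106) and -0.08 ± 0.10 in experiment 2 (adjusted p = 0.811). An exact permutation of genotype within experiments gave p = 0.0114 over both experiments, where 0.00143 is the smallest p that the 700 regroupings allow, and p = 0.0571 in experiment 1, where 0.0286 is the smallest.

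Gad1, the cytosolic decarboxylase that makes most of the brain's GABA, was at 11.10, 11.06 and 11.04 log2 units in Kmt2d+/βGeo mice and at 11.29, 11.23, 11.26 and 11.15 in wild-type mice of experiment 1. The values of experiment 2 were 10.14, 10.13 and 9.96 in Kmt2d+/βGeo mice and 10.16, 10.12 and 10.24 in wild-type mice. Experiment 1 again showed no overlap, and in experiment 2 only Kmt2d+/βGeo replicate 3 lay below the wild-type range. The difference was -0.14 ± 0.05 over both experiments (limma adjusted p = 0.882, unadjusted p = 0.0241; exact permutation p = 0.00857), -0.17 ± 0.08 in experiment 1 and -0.10 ± 0.08 in experiment 2. Septal neurons also make GABA, and the septum markers given above separated the genotypes in the same direction in both experiments, with all 7 markers at negative differences in each. Zic1, a transcription factor of the septum, was at -1.09 ± 0.27 in experiment 1 and -0.96 ± 0.29 in experiment 2, and none of the 7 passed (limma adjusted p from 0.21 to 1). The part of the septum markers in the Gad1 and Gad2 values was not tested. Without wild-type replicate 2 of experiment 1, the array with high striatal markers, Gad2 was at -0.31 and Gad1 at -0.17 in experiment 1 (limma adjusted p = 0.371 and 1).

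**Figure D1:**
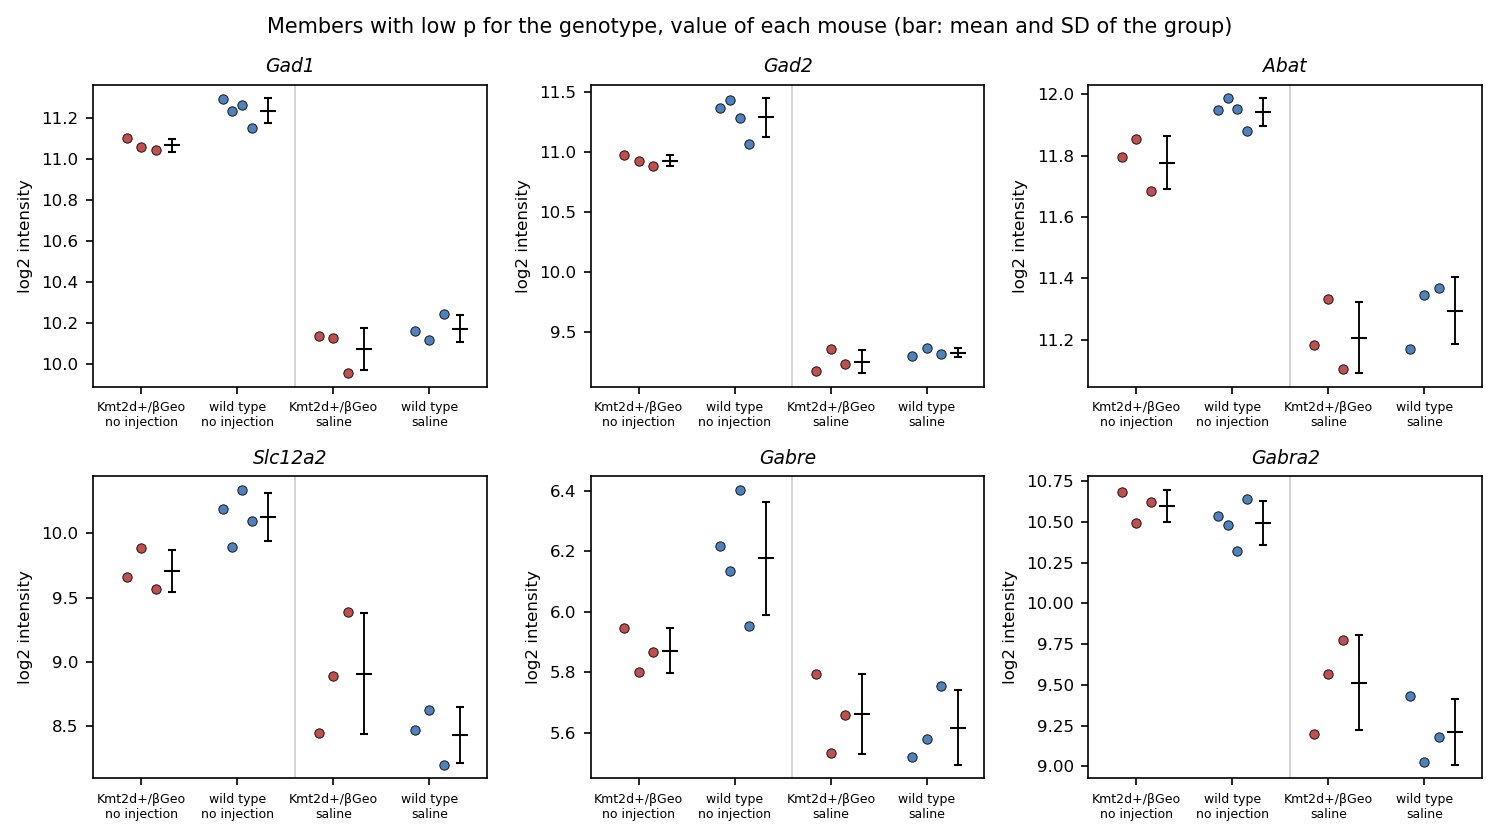
Log2 intensity (vertical axes) of Gad1, Gad2, Abat, Slc12a2, Gabre and Gabra2 in each mouse, with Kmt2d+/βGeo mice left of wild-type mice within each experiment. Each point is 1 mouse, and the bar beside each group is its mean and SD. In experiment 1 the Kmt2d+/βGeo points of the first 5 genes lie below all wild-type points, and for the genes other than Gabre the gap between the experiments is wider than that between the genotypes.

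Of the 27 members, 5 had every Kmt2d+/βGeo mouse below every wild-type mouse in experiment 1: Gad1, Gad2, Abat, Slc12a2 and Gabre (2.75% of all genes). In experiment 2 the same rule held for 1 member, Gabrp (5.17% of all genes). Gabrp, the pi subunit, was the 1 member with the opposite order in experiment 1 (4.47% of all genes), and no member had it in experiment 2 (4.32% of all genes).

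The vesicular transporter gene Slc32a1, whose product fills synaptic vesicles with GABA and glycine, overlapped between the genotypes in both experiments. It averaged 8.61 ± 0.07 log2 units in Kmt2d+/βGeo mice (SD, n = 3) and 8.76 ± 0.17 in wild-type mice (SD, n = 4) of experiment 1, and 8.87 ± 0.13 against 8.86 ± 0.14 in experiment 2 (SD, n = 3 each). Its highest value in experiment 1, 9.01, was in wild-type replicate 2, and the difference in experiment 1 was -0.15 ± 0.10 with that array and -0.07 without it. Slc6a11, the astrocytic GABA transporter, averaged 11.61 ± 0.10 against 11.53 ± 0.19 in experiment 1 and 10.43 ± 0.11 against 10.36 ± 0.08 in experiment 2 for Kmt2d+/βGeo against wild type. The groups overlapped in both experiments for both transporters.

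Abat, the transaminase that starts the breakdown of GABA in mitochondria, was at 11.79, 11.85 and 11.68 log2 units in Kmt2d+/βGeo mice and at 11.95, 11.99, 11.95 and 11.88 in wild-type mice of experiment 1. Those of experiment 2 were 11.18, 11.33 and 11.11 in Kmt2d+/βGeo mice and 11.17, 11.35 and 11.37 in wild-type mice. The groups were apart in experiment 1 and overlapped in experiment 2, where replicate 1 of each genotype was almost equal. The difference was -0.13 ± 0.06 over both experiments (limma adjusted p = 0.934, unadjusted p = 0.0464; exact permutation p = 0.0271). It was -0.16 ± 0.08 in experiment 1 (exact permutation p = 0.0286, the smallest possible) and -0.09 ± 0.09 in experiment 2.

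Slc12a2, the chloride importer NKCC1, gave opposite differences in the 2 experiments. It was at 9.66, 9.89 and 9.56 log2 units in Kmt2d+/βGeo mice and at 10.19, 9.89, 10.34 and 10.10 in wild-type mice of experiment 1, where the closest mice of the 2 genotypes were almost equal. In experiment 2 it was at 8.45, 8.89 and 9.39 in Kmt2d+/βGeo mice and at 8.47, 8.63 and 8.20 in wild-type mice, with overlapping groups and its lowest value in wild-type replicate 3. The difference was -0.42 ± 0.18 in experiment 1 and 0.47 ± 0.19 in experiment 2 (limma adjusted p = 1 and 0.419, unadjusted p = 0.0289 and 0.023). Exact permutation gave p = 0.0571 in experiment 1 and p = 0.3 in experiment 2. The difference of these effects was 0.90 ± 0.26 (limma adjusted p = 0.659, unadjusted p = 0.0032).

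The value in experiment 2 rested on single mice: it was 0.23 without Kmt2d+/βGeo replicate 3 and 0.71 without Kmt2d+/βGeo replicate 1. The difference of the effects stayed above 0 with each array left out, at 0.66 to 1.13. NKCC1 is abundant in the choroid plexus, and the choroid plexus markers had the same signs as Slc12a2: all 12 had negative differences in experiment 1 and all 12 positive ones in experiment 2. Their mean in experiment 1 was highest in wild-type replicates 1, 3 and 4, at 9.17, 9.42 and 9.40, and wild-type replicate 2, which had the lowest Slc12a2 of its group, was at 7.92. In experiment 2 the highest mean, 8.47, was in Kmt2d+/βGeo replicate 3 and the lowest, 6.70, in wild-type replicate 3, the mice with the highest and the lowest Slc12a2. Other mice of experiment 2 broke this order. Kmt2d+/βGeo replicate 2 had a mean of 7.39 with Slc12a2 at 8.89, and wild-type replicate 2 a mean of 8.22 with Slc12a2 at 8.63. The 9 myelin markers also changed sign, with 9 below 0 in experiment 1 and 8 above and 1 below 0 in experiment 2. The part of either list in the Slc12a2 values was not tested. Slc12a5, the neuronal chloride exporter KCC2, averaged 11.32 ± 0.02 in Kmt2d+/βGeo and 11.30 ± 0.06 in wild-type mice of experiment 1 (SD, n = 3 and 4), and 10.48 ± 0.13 against 10.60 ± 0.06 in experiment 2 (SD, n = 3 each), with differences of 0.01 ± 0.08 and -0.12 ± 0.08 (SE).

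**Figure D2:**
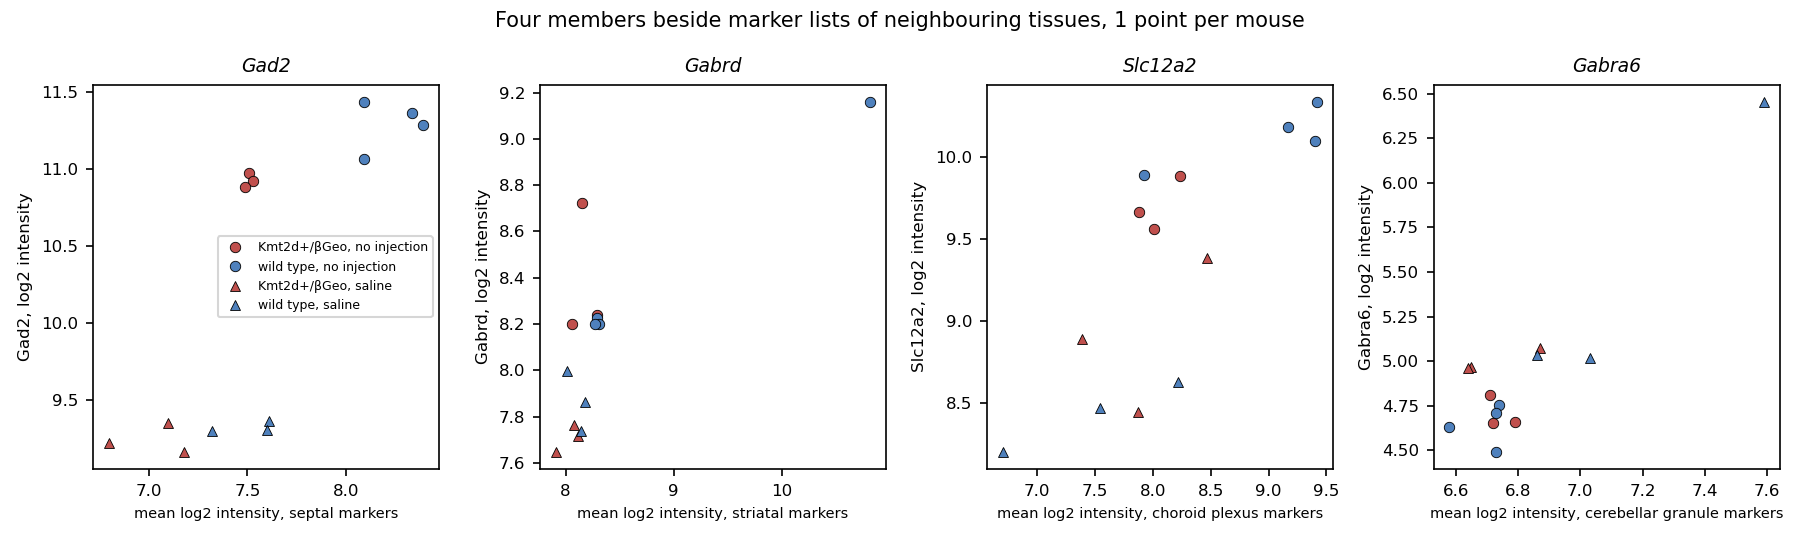
For 4 pairs, the mean log2 intensity of a marker list (horizontal axes) and the log2 intensity of a member (vertical axes) in each mouse: septum markers and Gad2, striatal markers and Gabrd, choroid plexus markers and Slc12a2, and cerebellar granule cell markers without Gabra6 and Gabra6. Each point is 1 mouse, coloured by group. Wild-type replicate 2 of experiment 1, at a striatal mean of 10.82, has the highest Gabrd value (9.16), and wild-type replicate 3 of experiment 2, at a cerebellar mean of 7.59, the highest Gabra6 value (6.45).

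The scaffold genes were close between the genotypes. Gephyrin (Gphn), which anchors GABA-A and glycine receptors, averaged 10.40 ± 0.03 log2 units in Kmt2d+/βGeo mice and 10.37 ± 0.04 in wild-type mice of experiment 1, and 9.80 ± 0.19 against 9.61 ± 0.17 in experiment 2 (SD, n = 3, 4, 3 and 3). Nlgn2, the adhesion protein of inhibitory synapses, averaged 10.49 ± 0.03 against 10.41 ± 0.06 and 10.70 ± 0.08 against 10.69 ± 0.23. Over both experiments the differences were 0.10 ± 0.07 for Gphn and 0.04 ± 0.07 for Nlgn2. For the GABA-B receptor genes, whose products work as a pair with the ligand site on the first, they were -0.03 ± 0.05 for Gabbr1 and -0.02 ± 0.06 for Gabbr2, and the groups overlapped in both experiments.

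Among the GABA-A alpha subunits, 5 of 6 were bright on the array and 1, Gabra6, a subunit of cerebellar granule cells, was dim. Gabra2, a subunit of synapses on pyramidal cells, was at 10.68, 10.49 and 10.62 log2 units in Kmt2d+/βGeo mice and at 10.54, 10.48, 10.32 and 10.64 in wild-type mice of experiment 1. In experiment 2 it was at 9.20, 9.57 and 9.77 in Kmt2d+/βGeo mice and at 9.43, 9.03 and 9.18 in wild-type mice. The groups overlapped in both experiments. The difference was 0.11 ± 0.13 in experiment 1 and 0.30 ± 0.14 in experiment 2 (limma adjusted p = 0.474, unadjusted p = 0.0446). For experiment 2, exact permutation gave p = 0.2. The difference in experiment 2 was 0.17 without Kmt2d+/βGeo replicate 3 and 0.46 without Kmt2d+/βGeo replicate 1. C57BL/6J mice are known to carry an intronic deletion that lowers Gabra2 expression, and all groups share that strain.

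Gabra5, the alpha subunit of extrasynaptic receptors that is enriched in the hippocampus, was at 0.10 ± 0.06 over both experiments (limma adjusted p = 0.934; exact permutation p = 0.0371), with overlapping groups in each. Gabra3 was at -0.05 ± 0.12, and in experiment 1 its wild-type values ran from 10.80 in replicate 2 to 11.62, around all 3 Kmt2d+/βGeo values. Gabra4, a partner of the delta subunit in granule cells, was at 0.04 ± 0.09. The beta subunits, which are needed for assembly of the channel, were at 0.13 ± 0.08 for Gabrb1 and -0.01 ± 0.07 for Gabrb2. The other 2 probe sets of Gabrb2 gave 0.00 and -0.02 for the same comparison.

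The 2 gamma subunit genes had negative differences in experiment 1 and positive ones in experiment 2. Gabrg3 was at 10.26, 10.15 and 10.08 log2 units in Kmt2d+/βGeo mice and at 10.22, 10.82, 10.45 and 10.24 in wild-type mice of experiment 1, and at 9.57, 9.46 and 9.33 against 9.34, 9.42 and 9.23 in experiment 2. Its highest value was in wild-type replicate 2 of experiment 1, and the groups overlapped in both experiments. The difference in experiment 1 was -0.27 ± 0.13 (limma adjusted p = 1, unadjusted p = 0.0494) and moved to -0.14 without wild-type replicate 2 of experiment 1 (limma adjusted p = 1). With all arrays of experiment 1, exact permutation gave p = 0.2.

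Gabrg1, whose subunit is common in glia and in parts of the basal forebrain, was at 8.91, 8.73 and 8.63 in Kmt2d+/βGeo mice and at 9.32, 8.68, 9.09 and 9.04 in wild-type mice of experiment 1. In experiment 2 it was at 6.73, 6.66 and 7.21 in Kmt2d+/βGeo mice and at 6.66, 6.64 and 6.63 in wild-type mice. The single high mouse of experiment 2 was Kmt2d+/βGeo replicate 3. The difference of the 2 genotype effects was 0.50 ± 0.21 (limma adjusted p = 0.756, unadjusted p = 0.0313), and 0.33 without that mouse. Such a difference had an unadjusted p under 0.05 for 4 members, Slc12a2, Gabrg1, Gabre and Gad2, all above 0 (3.24% of all genes), and 0 passed the adjusted threshold, as did 0% of all genes.

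Gabrd, the subunit of extrasynaptic receptors of granule cells, was at 8.24, 8.72 and 8.20 in Kmt2d+/βGeo mice and at 8.23, 9.16, 8.20 and 8.20 in wild-type mice of experiment 1, with 2 arrays tied exactly in the wild-type group. Experiment 2 gave 7.72, 7.77 and 7.65 against 7.74, 7.86 and 8.0. The high array was again wild-type replicate 2 of experiment 1, and the difference in experiment 1 was -0.06 ± 0.20 with it and 0.18 without it (limma adjusted p = 1 for both). Gabrd is also expressed in the striatum and the thalamus. The thalamus markers averaged 8.61 in Kmt2d+/βGeo replicate 2 of experiment 1, the group's highest Gabrd array. They averaged 8.12 in the wild-type array with high striatal markers. In wild-type replicates 1, 3 and 4 they averaged 8.53, 8.36 and 8.37, where Gabrd was at 8.23, 8.20 and 8.20. In Kmt2d+/βGeo replicates 1 and 3 of experiment 1 they averaged 8.11 and 8.18, where Gabrd was at 8.24 and 8.20. The part of either list in the Gabrd values was not tested.

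The other members were dim, with mean intensities below the median of 7.54 of all genes, where the array compresses differences. Gabre, the epsilon subunit on the X chromosome, was at 5.95, 5.80 and 5.87 in Kmt2d+/βGeo mice and at 6.22, 6.14, 6.40 and 5.95 in wild-type mice of experiment 1, with the closest mice of the 2 genotypes almost equal. Experiment 2 gave 5.79, 5.53 and 5.66 against 5.52, 5.58 and 5.75, with full overlap. The difference in experiment 1 was -0.31 ± 0.11 (limma adjusted p = 1, unadjusted p = 0.0109; exact permutation p = 0.0571), and -0.23 without wild-type replicate 3, the mouse of unlabelled sex.

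The rho subunits form GABA channels best known from the retina. Gabrr3 was at 4.87, 5.16 and 5.05 in Kmt2d+/βGeo mice and at 4.84, 5.14, 5.0 and 5.06 in wild-type mice of experiment 1, and at 5.29, 5.04 and 5.02 against 5.49, 5.28 and 5.41 in experiment 2. Its groups overlapped in both experiments, and the difference in experiment 2 was -0.28 ± 0.11 (limma adjusted p = 0.417, unadjusted p = 0.0216). There, exact permutation gave p = 0.2, and with 3 against 3 mice it cannot go below p = 0.1. Gabrr1 and Gabrr2 were at -0.12 ± 0.07 and -0.04 ± 0.07 over both experiments, and Gabrq, the theta subunit, at -0.25 ± 0.12, the lowest difference of the 27 (limma adjusted p = 0.934). Its groups overlapped in both experiments.

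**Figure D3:**
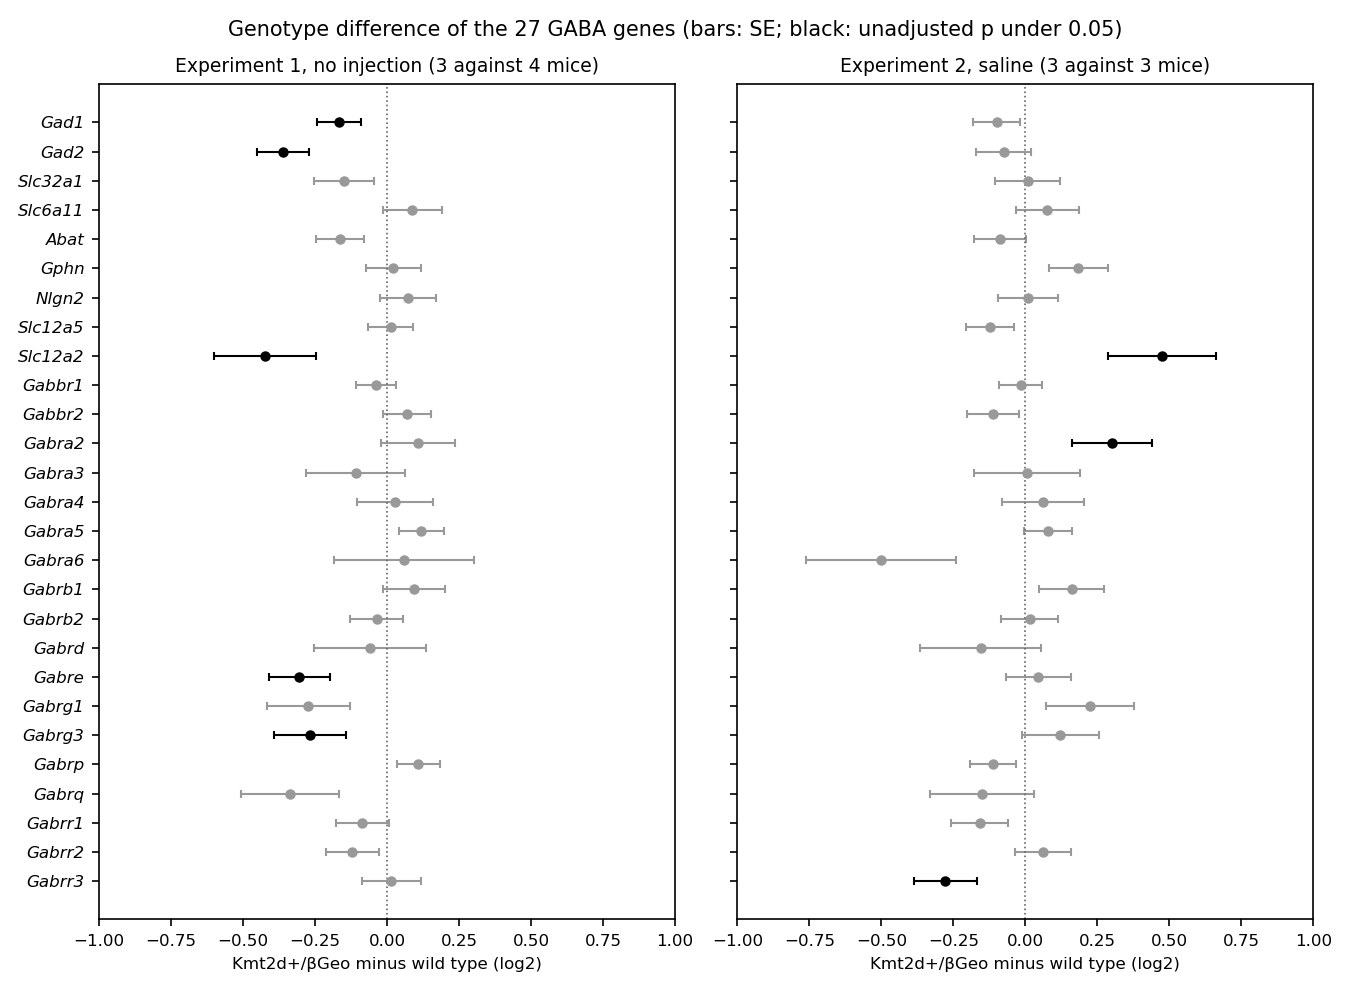
Difference between Kmt2d+/βGeo and wild-type mice in log2 units (horizontal axis) for each of the 27 genes (vertical axis, ordered by role), with experiment 1 and experiment 2 as separate points and the SE from limma as bars. Most differences lie within 0.2 of 0, and Slc12a2 has the widest gap between the experiments, at -0.42 and 0.47.

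Genes of the same pathway outside the 27 gave no call for genotype either. With limma over both experiments, 0 of 5 measured genes of precursor supply and breakdown, 0 of 2 other GABA transporter genes, 0 of 6 GABA-B receptor partners and effectors and 0 of 17 genes of receptor trafficking and the inhibitory scaffold passed, and none had an unadjusted p under 0.05. Their median differences were 0.00, -0.16, 0.05 and 0.00, against 0.00 over all genes. Slc38a3, a glutamine transporter, was at -0.12 ± 0.07 and the betaine and GABA transporter gene Slc6a12 at -0.19 ± 0.10. Kcnj3, a potassium channel opened by GABA-B receptors, was at 0.12 ± 0.07, and Nlgn1 at 0.11 ± 0.07.

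Interneuron markers did not share 1 direction. Of 19 measured, 8 were above 0 and 11 below, 0 passed and 5 had an unadjusted limma p under 0.05 (5.25% of all genes). Kcnc2, a potassium channel of fast-spiking interneurons, was at 0.35 ± 0.07 (limma adjusted p = 0.306) and the neuropeptide gene Npy at 0.16 ± 0.07, while the transcription factor genes Dlx6 and Dlx2 were at -0.42 ± 0.13 and -0.19 ± 0.08 (limma adjusted p = 0.795 to 0.934). The mean of the list was 9.09 to 9.22 in Kmt2d+/βGeo mice and 9.18 to 9.22 in wild-type mice of experiment 1, and 8.68 to 8.86 against 8.77 to 8.90 in experiment 2, so the groups overlapped in both.

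The second comparison was between the saline-injected mice of experiment 2 and the mice without injections of experiment 1. RNA was extracted with TRIzol and spin columns in experiment 2 and with an RNeasy kit in experiment 1, so injections, extraction and anything else that differed between the experiments cannot be told apart. Of the 27 members, 24 passed an adjusted p of 0.05 in limma (77.2% of all genes), 19 of them lower in experiment 2 (35.4% of all genes) and 5 higher (41.8% of all genes). The 5 higher were Gabra6, Gabrr2, Gabrr3, Nlgn2 and Slc32a1. The median difference was -0.63 log2 units for the members, against 0.07 for all genes. Many cell type markers were lower too: 9 of 10 astrocyte markers passed as lower (median -0.68) and 1 as higher. Of 19 interneuron markers 11 were lower and 2 higher (-0.48), and of 9 myelin markers 5 and 1 (-0.54). Lower calls alone came from 9 of 12 dentate granule cell (-0.43), 5 of 7 septum (-0.54) and 3 of 5 CA1 pyramidal cell markers (-0.38). The same held for 5 of 12 choroid plexus (-0.64) and 2 of 10 striatal markers (-0.53). Of 6 thalamus markers, 3 passed as lower and 1 as higher (-0.42). Of 6 cerebellar granule cell markers, which include Gabra6, 5 passed as higher and 1 as lower (0.55). The part of these lists in the values of the members was not tested. Each mouse of experiment 2 lay below each mouse of experiment 1 for 18 members (27.5% of all genes) and above for 1, Gabra6 (25.4% of all genes).

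Gabrg1 fell most, by 2.16 ± 0.12 log2 units, to 6.87 ± 0.30 in Kmt2d+/βGeo and 6.64 ± 0.02 in wild-type mice of experiment 2, against 8.76 ± 0.14 and 9.03 ± 0.27 in experiment 1 (SD, n = 3, 3, 3 and 4; limma adjusted p = 9.04e-11). Gad2 fell by 1.83 ± 0.07, to 9.25 ± 0.10 and 9.32 ± 0.04 in experiment 2, against 10.93 ± 0.05 and 11.29 ± 0.16 in experiment 1 (limma adjusted p = 2.13e-12). Gad1 fell less, by 1.03 ± 0.05 (limma adjusted p = 5.75e-11), and Slc32a1, which acts with both in the same cells, was at 0.17 ± 0.08 (limma adjusted p = 0.0486; exact permutation p = 0.0529). The call of Slc32a1 was lost with 9 of the 13 arrays when each was left out in turn, at 0.14 to 0.18 (limma adjusted p from 0.0659 to 0.116).

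The neighbours of Gabrg1 on chromosome 5 were lower as well, and Gabra4 and Gabrb1 ranked next to Gad2. Gabrb1 was at 9.58, 9.76 and 9.76 log2 units in Kmt2d+/βGeo and at 9.80, 9.40 and 9.41 in wild-type mice of experiment 2, against 11.49, 11.35 and 11.54 in Kmt2d+/βGeo and 11.35, 11.21, 11.43 and 11.48 in wild-type mice of experiment 1. Gabra4 was at 9.04, 9.69 and 9.53 in Kmt2d+/βGeo and at 9.57, 9.19 and 9.32 in wild-type mice of experiment 2, against 11.02, 11.13 and 11.07 in Kmt2d+/βGeo and 11.02, 11.21, 10.98 and 10.97 in wild-type mice of experiment 1. Both genes separated the experiments without overlap. The differences were -1.80 ± 0.08 for Gabrb1, -1.67 ± 0.09 for Gabra4 and -1.19 ± 0.09 for Gabra2 (limma adjusted p = 3.92e-12, 1.14e-10 and 8.15e-09). The annotated spans of Gabra4 and Gabrb1 overlap, as given above, and where their probes lie was not examined. The pair on chromosome 7 was at -1.01 ± 0.06 (Gabra5) and -0.92 ± 0.10 (Gabrg3), while the 2 genes on chromosome 11 had opposite signs, at -0.29 ± 0.07 for Gabrb2 and 0.59 ± 0.19 for Gabra6.

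The size of the difference varied with brightness across all genes. When the 19938 genes were divided into 10 bins of equal size by mean intensity, the median difference was 0.19 to 0.35 log2 units in the 4 dimmest bins and -0.42 in the brightest bin, which holds 13 of the 27 members. Within their own bins, 5 members lay below the 5th percentile of all genes: Gabrg1, Gad2, Gabrb1, Gabra4 and Gabre. After quantile normalization of the 13 arrays, which gives every array the same distribution, the median of the brightest bin was -0.24, and the same 5 members lay below the 5th percentile of their bins. Gabrg1 was then at -2.21, Gad2 at -1.60, Gabrb1 at -1.58, Gabra4 at -1.43 and Gabre at -0.75. That setting called 22 members lower and 2 higher, so that 91.7% of the calls were lower, against 79.2% without it. The members that kept a higher call were Nlgn2, at 0.46, and Slc32a1, at 0.40. Quantile normalization moved the median of all genes by -0.12, from 0.07 to -0.05.

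**Figure D4:**
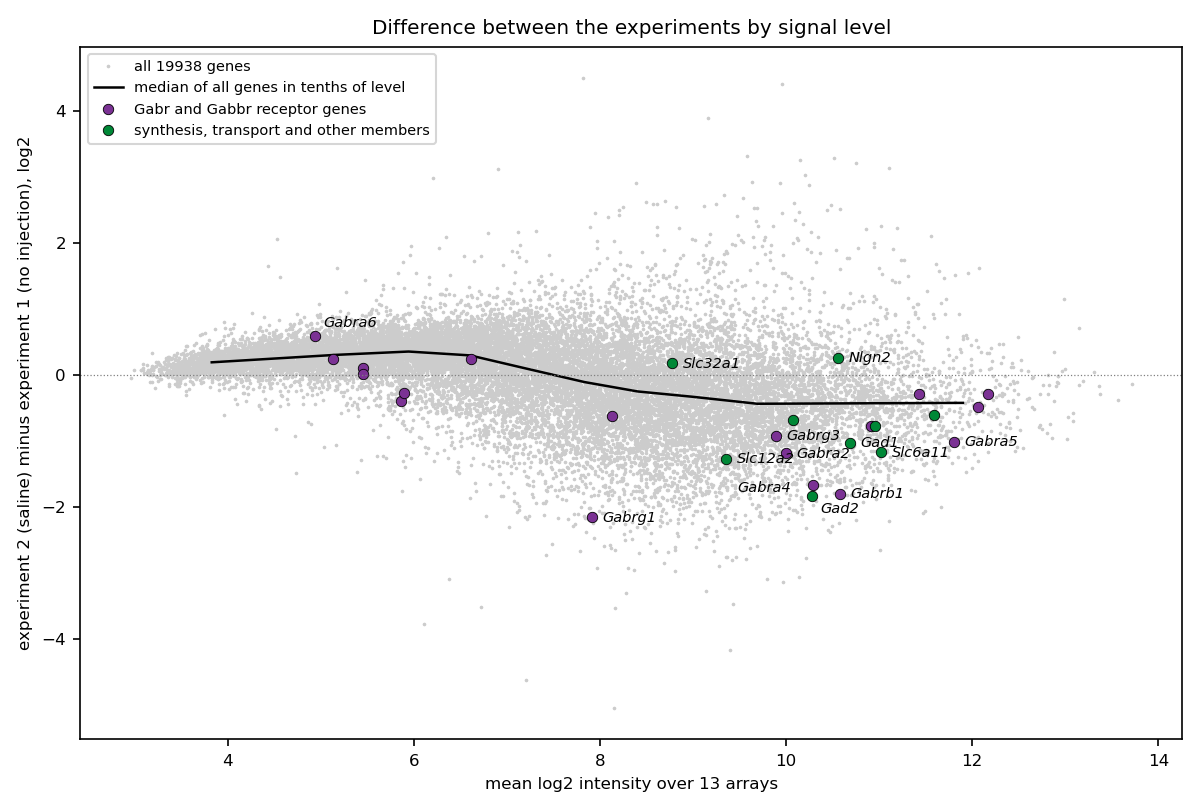
Difference between experiment 2 and experiment 1 in log2 units (vertical axis) against the mean log2 intensity over all arrays (horizontal axis) for all genes and, as larger points, the 27 members. The line is the median of all genes in 10 bins of intensity, and members more than 0.9 below 0 are named with 3 of the higher ones. Gabrg1 is lowest at -2.16, and the bright members lie mostly below 0.

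The 4 largest positive differences among the members were smaller. Gabra6 was at 5.07, 4.96 and 4.96 log2 units in Kmt2d+/βGeo and at 5.02, 5.03 and 6.45 in wild-type mice of experiment 2, against 4.65, 4.66 and 4.81 in Kmt2d+/βGeo and 4.49, 4.63, 4.75 and 4.71 in wild-type mice of experiment 1. Its highest value by far was in wild-type replicate 3 of experiment 2, which also had the highest value of 4 of the 5 other cerebellar granule cell markers, with Fat2 at 7.67 and Cbln3 at 7.33. The difference between experiments was 0.59 ± 0.19 with that array and 0.33 without it (limma adjusted p = 0.0083 and 0.000236), and 0.28 after quantile normalization (adjusted p = 0.194). The part of the cerebellar markers in the Gabra6 value was not tested.

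Nlgn2 rose by 0.25 ± 0.07 in experiment 2 (limma adjusted p = 0.00354). It was at 10.68, 10.64 and 10.79 in Kmt2d+/βGeo and at 10.44, 10.76 and 10.89 in wild-type mice of experiment 2, against 10.51, 10.45 and 10.51 in Kmt2d+/βGeo and 10.42, 10.34, 10.50 and 10.39 in wild-type mice of experiment 1. Wild-type replicate 1 of experiment 2 lay within the range of experiment 1, and every other mouse of experiment 2 lay above it. It stayed above 0 under quantile normalization, as given above.

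The rho subunit genes Gabrr2 and Gabrr3 were higher by 0.24 ± 0.07 and 0.25 ± 0.08 as deposited (limma adjusted p = 0.0049 and 0.0109), and changed sign after quantile normalization, at -0.06 and -0.09. Gabrr2 was at 6.94, 6.63 and 6.77 in Kmt2d+/βGeo and at 6.78, 6.73 and 6.64 in wild-type mice of experiment 2, against 6.49, 6.55 and 6.29 in Kmt2d+/βGeo and 6.47, 6.55, 6.66 and 6.57 in wild-type mice of experiment 1. Its groups overlapped at 6.63 to 6.66, and those of Gabrr3 overlapped as its values above show.

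Of the other members that fell, the differences were -0.61 ± 0.06 for Abat, -1.17 ± 0.07 for Slc6a11, -1.28 ± 0.17 for Slc12a2, -0.77 ± 0.06 for Slc12a5 and -0.69 ± 0.07 for Gphn. Among receptor genes they were -0.29 ± 0.05 for Gabbr1, -0.48 ± 0.06 for Gabbr2, -0.77 ± 0.12 for Gabra3, -0.63 ± 0.14 for Gabrd and -0.40 ± 0.09 for Gabre. The 3 members that did not pass were Gabrq (-0.27 ± 0.12), Gabrp (0.10 ± 0.06) and Gabrr1 (0.01 ± 0.07). The 3 probe sets of Gabrb2 disagreed, at -0.29, -0.52 and 0.07 log2 units, so its direction depends on the probe set.

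Each genotype was also compared between the experiments on its own. In Kmt2d+/βGeo mice 19 members passed (62.3% of all genes), 18 of them lower (31.3%) and 1 higher (31%). In wild-type mice 23 passed (69.3% of all genes), 19 of them lower (32%) and 4 higher (37.3%). Slc12a2 differed by -0.80 ± 0.19 between the experiments in Kmt2d+/βGeo mice and by -1.70 ± 0.18 in wild-type mice, which restates the difference of genotype effects given above. Among the other genes of the pathway, 4 of 5 of precursor supply and breakdown were lower in experiment 2, 4 of 6 GABA-B receptor partners were lower, 13 of 17 genes of trafficking and scaffold were lower and 1 higher, and 1 of 2 other GABA transporters was higher (limma over both genotypes, where 35.4% of all genes were lower and 41.8% higher). Aldh5a1, which completes the breakdown of GABA after Abat, was at -1.56 ± 0.08, Kctd16, an auxiliary subunit of GABA-B receptors, at -1.14 ± 0.09, and Plcl1, which binds GABA-A receptors and the proteins that traffic them, at -1.81 ± 0.13.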

How the data were processed

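Hippocampal RNA of 13 mice was labelled and hybridised to 1 array each, per the labels' protocols. The deposited table holds log2 intensities of 35556 probe sets (2.53 to 14.15), made by the authors with RMA in oligo, per the submitters' processing notes. Whether 1 run normalised all arrays, with which oligo version and genome build, stands as not given in the sources used here. RMA's last step, median polish, can tie arrays, as in 3 of the 27 genes. The median of an array over all probe sets lay between 7.04 and 7.08 in experiment 2 and between 6.74 and 6.90 in experiment 1. Over the 19938 genes tested the order was reversed, at 7.43 to 7.48 in experiment 2 and 7.52 to 7.58 in experiment 1. The platform annotation lists 23410 probe sets, 21789 with 1 symbol and 1621 with several, which were not used. The precision is limited by the number of arrays.

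Tests used limma 3.58.1 in R 4.3.3 (lmFit and eBayes, two-sided, Benjamini-Hochberg over 19938 genes, threshold 0.05), with experiment as a term or a model of the 4 groups. Array weights also came from limma, and statmod 1.5.0 was loaded with it. Errors are SE unless an SD is named. Exact permutations and sequence searches used Python 3.11.15 with numpy 2.4.6. The limma step was tested on simulated data. The genes and lists were chosen with earlier results of these data known. Values for every array are given for 14 genes: Gad1, Gad2, those with an unadjusted p under 0.05 for genotype, and the 4 largest calls in each direction between the experiments. Gabrd was added after its values were seen. Of other lists, calls or up to 4 genes of lowest p are named. Same-numbered mice did not deviate together (correlations from -0.228 to 0.221 over 6 pairs), so numbers do not pair mice. Nothing in the labels says that the mice of a group were from separate litters.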

Additional observations from a re-analysis of the deposited data

Results flagged for a closer look

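Gabrd in wild-type replicate 2 of experiment 1 stood at 9.16 log2 units, against 8.20 to 8.23 in the other 3 wild-type mice of that experiment. The gap was 0.976 of the group's range, above the limit of 0.829 for 4 samples. Of 27 such groups examined, 1 was past the limit, and chance alone gives about 1 in 20. The same array had the highest value of all 10 striatal markers, whose part in the Gabrd value was not tested.

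Gabrp went opposite ways in the experiments, with every Kmt2d+/βGeo mouse above every wild-type mouse in experiment 1 (5.45 to 5.5 against 5.23 to 5.43) and below in experiment 2 (5.41 to 5.49 against 5.53 to 5.64). The difference of the 2 effects was -0.22 ± 0.11 log2 units (limma adjusted p = 0.769, unadjusted p = 0.0625). The probe set is dim, with a mean of 5.46.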

How the results depend on the processing

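Up to 23 other settings were tried per result. The count of members called for genotype stayed at 0 over both experiments, in each experiment and for the difference of the effects, under every setting run and with each array left out in turn (0 to 0). Over all genes the settings mattered more: in experiment 1, 4 genes passed as deposited, 48 without wild-type replicate 2, 163 with array weights and 0 without wild-type replicate 3. In experiment 2, 91 passed without Kmt2d+/βGeo replicate 1, against 0, and over both experiments 21 with array weights, against 0; the cause was not tested. Gad2 came nearest in experiment 1, with an adjusted p of 0.0507 with array weights and up to 1 otherwise, and differences from -0.44 to -0.29. Between the experiments, 24 members were called (23 to 25 with an array left out, 21 to 25 over all settings), 23 in wild-type mice (21 to 24, 19 to 24) and 19 in Kmt2d+/βGeo mice (17 to 21, 17 to 23). The low ends 21 and 19 over all settings come from leaving out the dimmest 30% of genes, where 21 members were tested. Slc32a1 lost its call with 9 of the 13 arrays left out in turn (0.14 to 0.18, adjusted p from 0.0659 to 0.116), with every probe set tested and with eBayes with trend and robust (0.17 in both, adjusted p = 0.0599 and 0.0519). Under quantile normalization Gabrr2 and Gabrr3 reversed, to -0.058 and -0.090, and Gabra6 lost its call at 0.28 (adjusted p = 0.194); of the 4 largest calls in each direction, Gabrg1, Gad2, Gabrb1, Gabra4 and Nlgn2 kept direction and call under all settings. With the replicate number as a block, the genotype counts were 0 and the counts between experiments 24, 23 and 19, so these counts did not change. Differences of dim genes are understated by the array, and 3 or 4 mice a group leave small differences undetected.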
